A study of Mus musculus with 6 samples.

Results

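The mouse apolipoprotein L genes Apol6, Apol7a, Apol7b, Apol7c, Apol7e, Apol8, Apol9a, Apol9b, Apol10b and Apol11b were followed in mouse aorta with and without eNOS, the endothelial nitric oxide synthase encoded by Nos3. These 10 genes were taken by name from the 22184 genes that had a probe set with exactly 1 gene symbol on the Affymetrix array, and each had 1 such probe set. The family was chosen by the measured difference of Apol11b between the genotypes on these arrays, so the differences of its members between genotypes are a description, with no p-value drawn from them. One group held 3 eNOS-deficient aortas (eNOS-KO 11, 15 and 19) and the other held 3 wild-type aortas (WT 2, 3 and 5) of matched age, each with 1 array and called here by its title number. The targeted allele, the strain, sex and age of the mice, and whether a sample was a single animal or a pool, were not given in the sources used here. Levels are log2 signals after robust multi-array averaging (RMA), so a difference of 1 log2 is a doubling, and levels of different genes cannot be ranked against each other.

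Apolipoprotein L proteins are mostly intracellular proteins with helices that can associate with or insert into membranes. The best known human member, APOL1, also circulates on high-density lipoprotein particles and lyses trypanosomes. In the mouse the family expanded into a cluster of genes on chromosome 15, some of them close copies. Several members are induced by interferons, the cytokines of antiviral defence. Apol9a and Apol9b are interferon-induced genes with antiviral activity, Apol7c is a gene of activated dendritic cells, and the human counterpart of Apol6 has been linked to programmed cell death.

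The start regions of the cluster genes are shown because they show how close its copies are before and around the gene start. Of the 10 members, 9 had a start region in the RefSeq table (build GRCm38.p6, 250 bases before to 50 after the start), and Apol6 was not matched. The letters searched were TTTC, any 2 bases and TTTC again, on either strand, the core of the element bound by interferon-activated factors, and matches are in capitals in the 120 bases before the start, given 5′ to 3′ in the direction of the gene. Apol11b lies at chr15:77643287-77643406 on the minus strand, and its near copy Apol11a, which has its own probe set and is not among the 10, at chr15:77508149-77508268 on the plus strand. Apol9a lies at chr15:77411081-77411200 on the minus strand and Apol9b at chr15:77728952-77729071 on the plus strand. Apol7b (chr15:77447461-77447580) and Apol7c (chr15:77533316-77533435) lie on the minus strand and Apol7e (chr15:77698769-77698888) on the plus strand.
Apol11b: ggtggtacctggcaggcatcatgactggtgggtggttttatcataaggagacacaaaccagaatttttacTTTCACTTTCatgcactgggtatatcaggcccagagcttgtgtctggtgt
Apol11a: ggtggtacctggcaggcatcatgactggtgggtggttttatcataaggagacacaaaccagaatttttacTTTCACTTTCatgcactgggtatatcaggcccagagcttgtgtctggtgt
Apol9a: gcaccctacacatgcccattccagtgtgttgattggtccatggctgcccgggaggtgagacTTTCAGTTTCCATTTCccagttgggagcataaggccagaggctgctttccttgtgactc
Apol9b: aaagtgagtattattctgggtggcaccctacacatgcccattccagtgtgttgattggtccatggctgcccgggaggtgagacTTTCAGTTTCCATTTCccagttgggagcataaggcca
Apol7b: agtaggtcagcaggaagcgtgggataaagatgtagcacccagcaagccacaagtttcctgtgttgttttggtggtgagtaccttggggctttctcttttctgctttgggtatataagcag
Apol7c: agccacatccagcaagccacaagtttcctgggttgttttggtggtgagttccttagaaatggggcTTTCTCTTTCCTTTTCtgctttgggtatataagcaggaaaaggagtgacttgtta
Apol7e: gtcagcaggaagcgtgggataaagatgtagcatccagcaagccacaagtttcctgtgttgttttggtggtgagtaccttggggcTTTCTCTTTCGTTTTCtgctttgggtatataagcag

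The start regions of Apol9a and Apol9b were the same in all 278 bases that could be aligned. Those of Apol11a and Apol11b differed at 2 of 300 aligned bases, and those of Apol7b and Apol7e at 7 of 300. Apol7c was 81.5% identical to Apol7e and 80.1% identical to Apol7b. The interferon element core was found in 6 of the 9 matched members, namely Apol7c, Apol7e, Apol9a, Apol9b, Apol10b and Apol11b, and in 3.99% of the 27025 genes of the table. In Apol11b and Apol11a it began 50 bases before the start. Apol7c, Apol7e, Apol9a and Apol9b each held a pair of overlapping matches, and in Apol10b the match began 4 bases before the start and ran past it. Apol7a, Apol7b and Apol8 had no match in the window. The letters TTC, any 3 bases and GAA, the same on both strands, are the core of sites bound by STAT factors. They were found in 1 member, Apol11b, 241 bases before its start, and in 9.55% of genes. Outside the 10, Apol11a and Apol10a also held them 241 bases before the start, and the related gene Apold1 83 bases before. A match of letters does not show binding. Most of each window lies before the start, outside the transcript, so likeness there does not show whether probes are shared. Probe sequences were not used here. Signals of Apol9a and Apol9b, of Apol7b, Apol7c and Apol7e, and of Apol11b and Apol11a may thus be shared in part. They are uncertain as values of single genes.

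As a check of the samples, the smooth muscle gene Acta2 was bright, at 12.65 ± 0.13 in the knockout and 12.37 ± 0.056 in wild type. Nos3, the targeted gene, stood at 7.13, 7.39 and 7.27 on eNOS-KO 11, 15 and 19 and at 7.99, 7.88 and 7.36 on WT 2, 3 and 5 (difference -0.48, limma adjusted p = 0.399). WT 5 lay inside the eNOS-deficient range, and whether the probes lie in the deleted stretch was not examined, so Nos3 does not settle the label of single arrays. Array medians ran from 5.55 to 5.68, and identical values made up at most 0.109% of any 2 arrays. Only 3 arrays a group limit the precision, and since the labels do not state separate animals, p-values speak of the spread among samples alone.

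Apol11b, a member without a role assigned here, was the gene that set the genotypes apart. Its signal stood at 4.10, 4.83 and 4.27 on eNOS-KO 11, 15 and 19 and at 6.98, 6.46 and 6.84 on WT 2, 3 and 5. All 3 eNOS-deficient arrays lay below all 3 wild-type arrays, with a gap between the groups wider than the range within either. The eNOS-deficient mean was 4.40 ± 0.38 (SD, n = 3) and the wild-type mean 6.76 ± 0.27. The difference (eNOS-KO minus WT) was -2.36 log2 (standard error 0.23), or 5.13-fold lower. Whether the mice differ in sequence under the Apol11b probes was not examined, and their strain is not known here. The lower values are dim: eNOS-KO 11 and 19 lay under the dim level of 4.38 log2 (25% of probe sets have a lower mean), so the size of the fall is uncertain. Among the falls of the 18008 genes tested, that of Apol11b ranked 14 by size, which is description only, since this difference chose the family. Larger falls included those of the squamous epithelium markers Krt4 (-4.94), Krt13 (-3.62) and Lor (-2.73) and the lung epithelium marker Scgb1a1 (-2.80). Leaving out 1 array at a time gave -2.57 to -2.21.

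**Figure D1:**
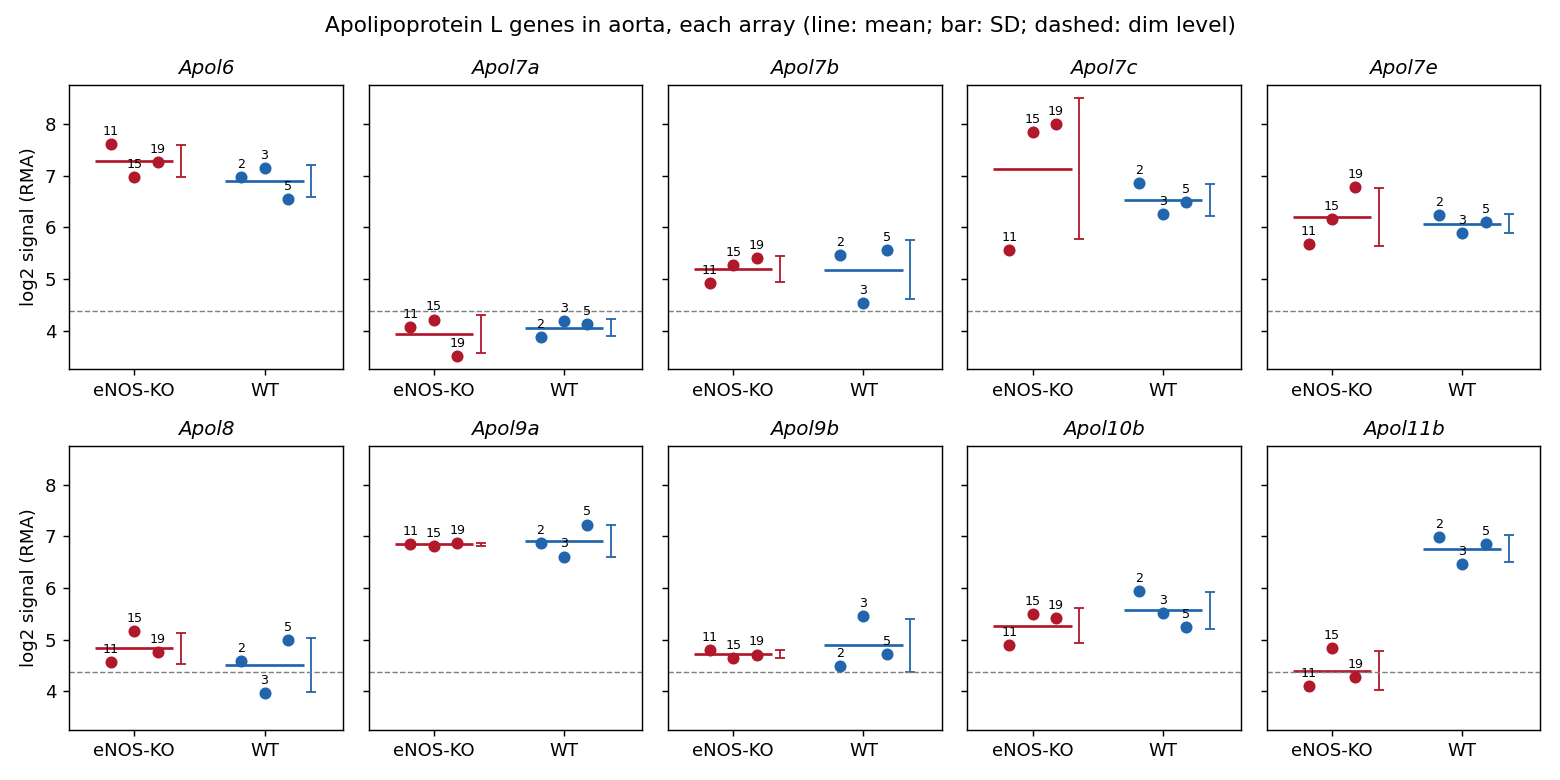
Log2 signal of each of the 10 apolipoprotein L genes on every array, with eNOS-KO arrays in red and WT arrays in blue, numbers naming the arrays, lines for group means and bars for SD (n = 3 each); the dashed line is the dim level of 4.38. In the Apol11b panel the groups are apart (4.10 to 4.83 against 6.46 to 6.98), and in the other 9 panels they overlap.

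Markers of several cell types also differed between these arrays. Those of squamous epithelium (19 of 20 measured) averaged 5.32, 5.22 and 5.25 on eNOS-KO 11, 15 and 19 and 6.21, 5.50 and 8.91 on WT 2, 3 and 5. Of the 17 that passed the dim filter, 0 were called by limma. An unadjusted p under 0.05 was reached by 3, all lower, against 11.6% of all genes tested. All 17 had negative differences, and the groups did not overlap for 7 of them, against 6.47% of all genes tested in that direction. WT 2 and WT 3 also lay above every eNOS-deficient array in the mean of these markers. Without WT 5, where they were highest, the difference of Apol11b was -2.32. Y-linked genes (3 of 4 measured) averaged 7.76, 4.71 and 8.0 on eNOS-KO 11, 15 and 19 and 3.63, 3.54 and 3.47 on the wild-type arrays. The wild-type averages lay under the dim level of 4.38 and the eNOS-deficient ones above it. All 3 genes were higher without overlap, against 13.1% of all genes tested in that direction. When adjusted over the list alone 3 were higher, and 0 when adjusted over all genes (limma). Of the eNOS-deficient arrays, eNOS-KO 15 had the lowest Y-linked mean and the highest Apol11b (4.83), which lay below the wild-type values (6.46 to 6.98). A link between these levels was not tested. Macrophage markers averaged 8.44 to 8.80 on the eNOS-deficient and 7.64 to 7.93 on the wild-type arrays, with 8 of 9 higher when adjusted over the list alone and 0 when adjusted over all genes (limma). Fibroblast markers averaged 9.97, 9.83 and 9.69 on the eNOS-deficient and 8.91, 9.14 and 9.58 on the wild-type arrays, with 2 of 6 higher over the list alone and 0 over all genes. Smooth muscle markers averaged 10.06, 9.82 and 10.05 against 9.83, 9.63 and 9.63, with 2 of 8 higher over the list alone and 0 over all genes. Higher without overlap were 8 of 9 macrophage, 3 of 6 fibroblast and 4 of 8 smooth muscle markers, against 13.1% of all genes tested. Of 4 lung epithelium markers, Scgb1a1 was lower without overlap (3.38, 3.34 and 3.49 against 8.99, 5.24 and 4.37), against 6.47% of all genes tested. The other 3 had positive differences and overlapped. Skeletal muscle markers averaged 11.68, 10.23 and 10.21 against 10.14, 9.27 and 11.18. The part of Y-linked genes and of any of these markers in the Apol11b difference was not tested. The Y-linked means did not overlap between the groups, but that of eNOS-KO 15 lay nearer to wild type than to eNOS-KO 11 and 19. On eNOS-KO 15 the Y-linked gene Kdm5d (4.24) lay under the dim level. With no overlap between the groups, the part of Y-linked genes cannot be told apart from that of genotype.

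Of the 10 members, 9 passed the dim filter. Of these, 1 (Apol11b) was called lower by limma (adjusted p under 0.05), where 0.0167% of all genes tested were called lower and 0.0111% higher. The family was chosen by this same difference, which favours the call, so the call is description and not a test. The count of members called was 0 in 10 of 15 alternative settings. Among them were those without eNOS-KO 11, without eNOS-KO 19 or without any 1 of the wild-type arrays. Because this contrast chose the family, nothing is read from the call, from its loss or from the overlap counts that follow. The groups of arrays did not overlap for 1 of the 10 members, which was lower, against 6.47% of the genes tested in that direction, 13.1% in the other and 19.5% in either. Without WT 3 that count was 4 of the 10, where 30.5% of the genes tested did not overlap in either direction. In the cluster, Apol11a, whose start region nearly matches that of Apol11b, was very dim on every array, at 2.08, 2.06 and 2.20 with the knockout and 1.96, 2.31 and 2.01 in wild type. No fall like that of Apol11b was seen there, and a signal this dim could not show one.

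By the root-mean-square distance between profiles over the 6 arrays, each centred on its own mean, the gene closest to Apol11b was Rgs13, a regulator of G-protein signalling, at 0.52 log2. It was followed by the olfactory receptor genes Olfr1077-ps1 and Olfr978 (0.63 each), by n-R5s136, named as a ribosomal RNA gene (0.66), and by Cdsn, which encodes corneodesmosin of the epidermis (0.66). Rgs13 stood at 3.73 to 4.26 on the eNOS-deficient and 5.39 to 5.59 on the wild-type arrays. These distances were wide beside those of the other 6 members so compared, whose closest genes lay within 0.20 log2, but the arrays also spanned more for Apol11b (2.88 log2) than for any of them. Cdsn stood at 6.76, 6.95 and 6.73 on the eNOS-deficient and at 7.96, 7.56 and 9.18 on the wild-type arrays. Groups that lie apart are favoured by the choice of genes for closeness to Apol11b, so nothing further is read from them.

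Apol7c had the widest spread within genotypes. It stood at 5.56, 7.84 and 8.0 on eNOS-KO 11, 15 and 19 and at 6.86, 6.25 and 6.49 on WT 2, 3 and 5, so the eNOS-deficient arrays held both the lowest and the highest values. The means were 7.13 ± 1.37 and 6.53 ± 0.31 (difference 0.60, standard error 0.61), and 98.8% of the genes tested had a smaller SD within genotypes. Without eNOS-KO 11 the difference was 1.39. Without eNOS-KO 15 or eNOS-KO 19 it was 0.25 or 0.17. T cell markers (6 of 7 measured) averaged 5.51, 7.72 and 8.10 on eNOS-KO 11, 15 and 19 and 6.99, 7.34 and 6.89 on WT 2, 3 and 5. B cell markers (6 of 7) averaged 5.90 on eNOS-KO 11 and 8.03 to 8.63 on the other arrays. Dendritic cell markers (9 of 10) averaged 6.14, 6.76 and 6.91 on the eNOS-deficient and 6.61, 6.52 and 6.41 on the wild-type arrays. The eNOS-deficient array that was lowest for Apol7c was lowest of all 6 in the means of T cell, B cell and dendritic cell markers. Of the single dendritic cell markers, Siglech, Batf3, Zbtb46 and Fscn1 were not lowest on that array. Ccr7 stood at 6.01 there and at 7.18 to 8.95 on the other arrays. In the means, eNOS-KO 11 was not lowest for macrophage markers (8.44, above the 7.64 to 7.93 of wild type) or neutrophil markers (4.73, against 4.67 to 4.90 in wild type). The part of these cells in the spread of Apol7c was not tested. In such bulk samples, fewer cells of a type and less RNA per cell cannot be told apart.

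The genes with profiles closest to Apol7c were Epsti1 and Siglec1 (distance 0.20 log2 each), H2-M2 (0.22), Ctsw (0.28) and Il18r1 (0.32). Epsti1 is an interferon-induced gene, Siglec1 encodes the macrophage receptor sialoadhesin, Ctsw a protease of cytotoxic lymphocytes and Il18r1 a receptor chain for interleukin 18. Siglec1 stood at 5.65, 7.57 and 8.17 on eNOS-KO 11, 15 and 19 and between 6.53 and 6.93 on the wild-type arrays. Siglec1 was picked for its closeness to Apol7c, so its low value on eNOS-KO 11 and high values on eNOS-KO 15 and 19 follow from that choice.

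Apol7e and Apol7b varied less than Apol7c, although their start regions resemble its own. Apol7e stood at 5.67, 6.15 and 6.79 on eNOS-KO 11, 15 and 19 and at 6.23, 5.88 and 6.10 on WT 2, 3 and 5, with eNOS-KO 11 lowest and eNOS-KO 19 highest. Its difference was 0.13 (standard error 0.27), and it turned to -0.16 without eNOS-KO 19. Its closest profile was that of Nt5e (0.094 log2), the ecto-enzyme CD73, followed by Serpina10 (0.10), Pglyrp1 (0.11), Lyz2 (0.12), a lysozyme gene of myeloid cells, and Trpm2 (0.12). Neutrophil markers (6 of 6) were also highest on eNOS-KO 19, at 5.72 against 4.67 to 4.90 elsewhere, and their part was not tested. Apol7b stood at 4.92, 5.26 and 5.41 against 5.46, 4.53 and 5.56, a difference of 0.016 (standard error 0.29), with WT 3 lowest. Its value was negative without eNOS-KO 15, without eNOS-KO 19 or without WT 3 (-0.02, -0.09 and -0.31). The profiles of Apol7b and Apol7e lay 0.31 log2 apart and those of Apol7c and Apol7e 0.60 apart. The nearest genes to Apol7b were Platr4 (0.055), Idi2 (0.080), Tnfaip8l3 (0.11), Grin3b (0.12) and Plet1 (0.13). Apol7a lay under the dim level on all 6 arrays, between 3.51 and 4.22, and did not enter the tests.

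Apol9a, an interferon-induced member, was the steadiest on the eNOS-deficient arrays. It stood at 6.85, 6.82 and 6.87 there and at 6.88, 6.61 and 7.23 on WT 2, 3 and 5. The wild-type arrays enclosed the eNOS-deficient ones, with WT 5 on top. The difference was -0.057 (standard error 0.17, 95% interval -0.46 to 0.35), and it turned to 0.0087 when arrays were centred on their medians and to 0.10 without WT 5. Apol9b stood at 4.80, 4.65 and 4.71 against 4.48, 5.46 and 4.73, so WT 3 was highest for Apol9b and lowest for Apol9a. Its difference was -0.17 (standard error 0.25), and 0.11 without WT 3. The profiles of both genes lay 0.44 log2 apart in spite of their identical start regions.

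Apol10b stood at 4.89, 5.51 and 5.42 on eNOS-KO 11, 15 and 19 and at 5.95, 5.51 and 5.25 on WT 2, 3 and 5. It was lowest on eNOS-KO 11 and highest on WT 2, and the groups overlapped (difference -0.29, standard error 0.23). The difference was -0.10 without eNOS-KO 11, -0.11 without WT 2 and -0.45 without WT 5. Its closest profiles were those of Ppan (0.073 log2), Gsdmd (0.076), Irf1 (0.087), St6galnac3 (0.094) and Gbp9 (0.099). Gsdmd encodes the pore-forming protein gasdermin D, Irf1 an interferon-induced transcription factor and Gbp9 a guanylate-binding protein induced by interferon gamma. Gbp9 stood at 6.02, 6.84 and 6.77 on the eNOS-deficient and at 7.18, 6.92 and 6.43 on the wild-type arrays, the same array order as Apol10b. The choice by closest profile favours such a shared order.

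Apol6 stood at 7.60, 6.98 and 7.25 on eNOS-KO 11, 15 and 19 and at 6.98, 7.15 and 6.55 on WT 2, 3 and 5, highest on eNOS-KO 11 and lowest on WT 5. Its difference was 0.38 (standard error 0.22), 0.22 without eNOS-KO 11, 0.21 without WT 5 and 0.051 without both. Endothelial markers (9 of 9) averaged 8.22, 8.48 and 8.54 on the eNOS-deficient and 8.87, 8.89 and 8.07 on the wild-type arrays, and their part in the values of Apol6 was not tested. The closest profiles were those of Osbpl6 (0.057 log2), Zfp971 (0.078), Cyth3 (0.084), Col18a1 (0.099) and Adcy9 (0.10). Col18a1 encodes a basement membrane collagen and Adcy9 an adenylyl cyclase. Apol8 stood at 4.57, 5.17 and 4.76 against 4.59, 3.97 and 5.0, with WT 3 lowest and under the dim level. Its difference was 0.32 (standard error 0.28), but 0.039 without WT 3, 0.15 without eNOS-KO 15 and 0.56 without WT 5. The profiles closest to it were Tagap1 (0.058), Pabpn1l (0.11), Abhd16b (0.13), Pramel13 (0.13) and Sntg1 (0.15).

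**Figure D2:**
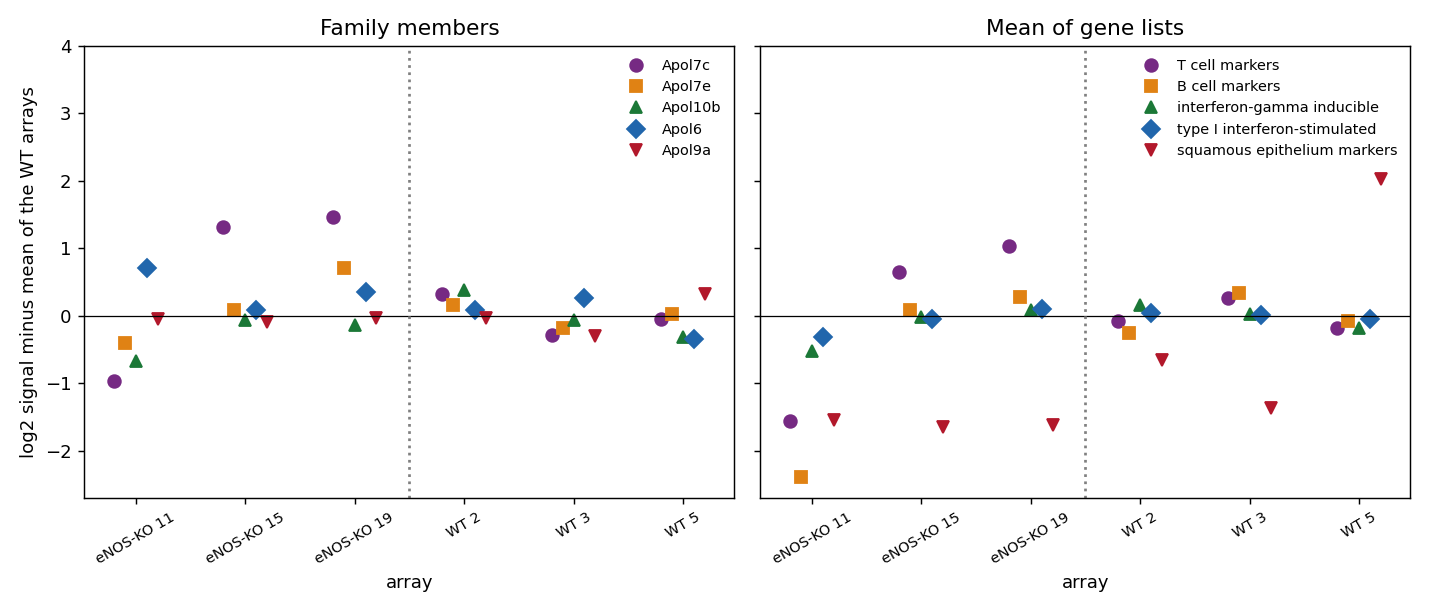
Log2 signal minus the mean of the WT arrays for 5 family members (left) and for the means of 5 gene lists (right) on each of the 6 arrays. On eNOS-KO 11 Apol7c, Apol7e and Apol10b are low, as are T cell, B cell and interferon-gamma inducible genes, while squamous epithelium markers are highest on WT 5.

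Other Apol-named genes did not show a difference of the size of that of Apol11b. Apol10a, also of the cluster, stood at 4.88, 4.01 and 4.36 on the eNOS-deficient and 4.53, 4.40 and 4.53 on the wild-type arrays, close to the dim level. Apol7d stood between 4.16 and 4.46 on all arrays. Apold1, a related gene of endothelial cells on chromosome 6, stood at 6.75, 7.16 and 7.07 against 7.11, 7.81 and 6.16, with both the highest and the lowest value in wild type. Neither Apol10a nor Apold1, the pair that passed the dim filter, was called by limma (0 at an unadjusted p under 0.05).

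The genes around the cluster were compared to see whether the neighbourhood moved with Apol11b. Of the 10 tested genes on each side of the cluster, 0 of 20 were called by limma, and 0 had an unadjusted p under 0.05, against 0.0278% and 11.6% of all genes tested. Their differences ran from -0.21 to 0.79, with a median of 0.00073 beside 0.036 for all genes tested. Mb, the myoglobin gene next to Apol6, differed by 0.49 (standard error 0.36, limma adjusted p = 0.639), and 1110038F14Rik by -0.14. Mb was highest on eNOS-KO 11 and lowest on WT 3, as was the mean of skeletal muscle markers, whose part was not tested. On the far side, Myh9, which encodes non-muscle myosin, differed by -0.21 (standard error 0.23) and Txn2, mitochondrial thioredoxin, by 0.15 (0.11), the only one of the 20 whose groups did not overlap. Zfp251 differed by 0.17 (0.13). Within the cluster, Rbfox2, a splicing regulator between Apol6 and Apol7a, measured 0.021 (0.13). The nearest family members on either side of Apol11b, Apol10b and Apol7e, differed by -0.29 and 0.13.

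**Figure D3:**
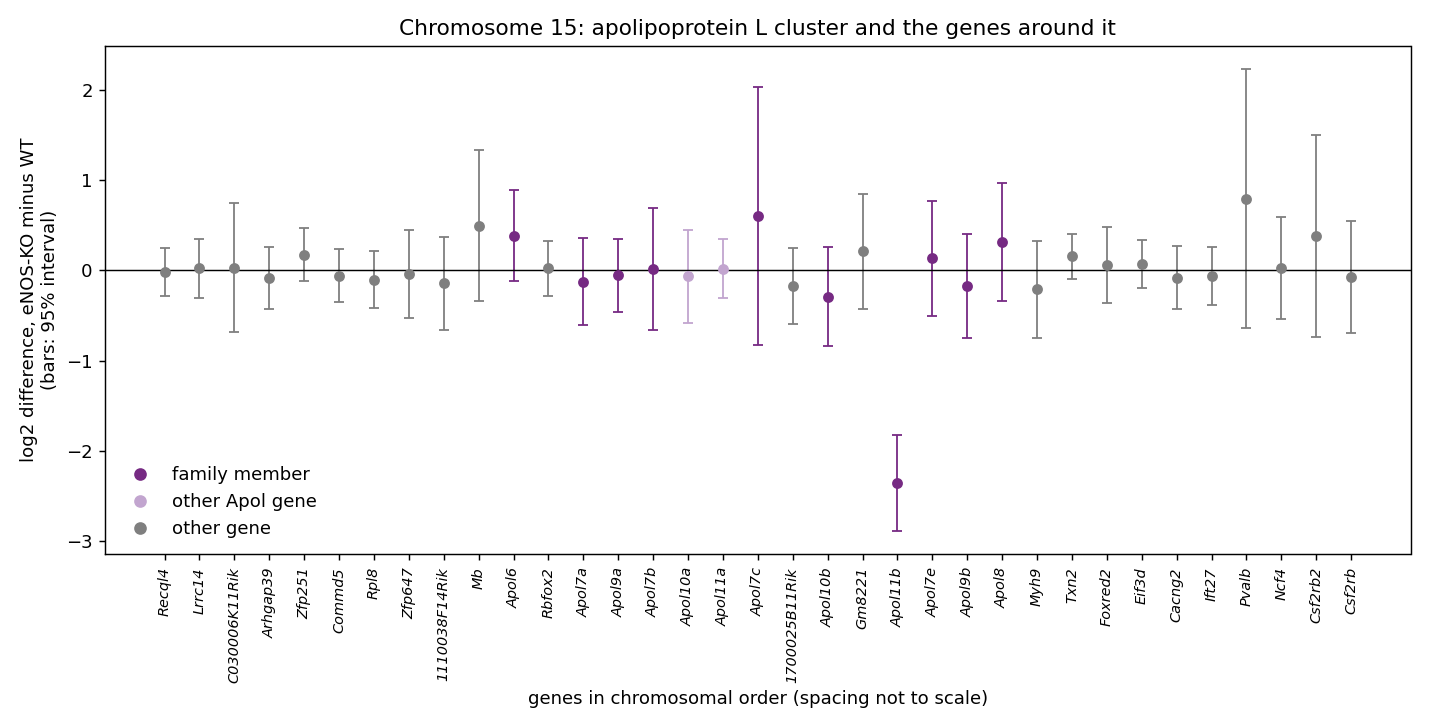
Log2 difference (eNOS-KO minus WT, with 95% intervals) of the tested genes of the chromosome 15 cluster and its flanks, with Apol7a and Apol11a shown although dim, in chromosomal order and with spacing not to scale. Apol11b lies at -2.36 and its nearest plotted neighbours, the pseudogene Gm8221 and Apol7e, at 0.21 and 0.13.

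Since several members are interferon-induced, they were set beside interferon genes. Of 29 type I interferon-stimulated genes tested, 0 were called over all genes and 0 over the list alone by limma (median -0.087). An unadjusted p under 0.05 was reached by 3, 1 higher and 2 lower, against 11.6% of all genes tested. The count over the list alone was 1 in 6 of 15 alternative settings. Rsad2, the antiviral protein viperin, measured 6.49 ± 0.21 against 7.19 ± 0.095 (limma adjusted p = 0.218). Phf11d measured 6.28 ± 0.096 against 5.87 ± 0.18. The next by p were Oas1g, an oligoadenylate synthetase (-0.51, standard error 0.21), and Ifit3 (-0.40, 0.20). Of 19 genes inducible by interferon gamma, 0 were called either way (median -0.16). Beside the same 11.6% of all genes tested, 2 had an unadjusted p under 0.05, both lower. These were the immunity-related GTPase Iigp1, at 7.02 ± 0.35 against 7.78 ± 0.32, and the guanylate-binding protein Gbp3, at 6.43 ± 0.24 against 6.90 ± 0.11. Gbp4 and Gbp9 differed by -0.52 and -0.30. By array, the interferon-gamma list averaged 6.38, 6.89 and 6.99 on the eNOS-deficient and 7.07, 6.93 and 6.72 on the wild-type arrays, and the type I list 5.98, 6.24 and 6.39 against 6.33, 6.31 and 6.25. eNOS-KO 11 was the lowest array in both lists, as it was for Apol7c, Apol7e, Apol10b and Apol11b. Of the other members that passed the dim filter, Apol9a, Apol9b, Apol7b and Apol8 were not lowest there, and Apol6 was highest. Without it, the median of the interferon-gamma list was 0.071 and that of the type I list 0.018. Of 11 interferon receptors and signal transducers, 0 were called. Beside 11.6% of all genes tested, Il10rb alone had an unadjusted p under 0.05 (0.36 higher, limma adjusted p = 0.407). Ifngr1, Ifnar2 and Ifngr2, receptor chains for interferons, differed by 0.37, 0.23 and 0.14.

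Apolipoproteins of other families, which share the name but not the sequence family, also gave 0 calls of 18 by limma (median 0.060). An unadjusted p under 0.05 was reached by 2, both higher, against 11.6% of all genes tested. Apoc1 measured 10.80 ± 0.091 against 10.47 ± 0.14 and Apod 10.46 ± 0.70 against 9.26 ± 0.89 (limma adjusted p = 0.399 and 0.421). The phospholipid transfer protein Pltp differed by 0.50 (standard error 0.21) and Apoe, which carries lipids in plasma, by 0.33 (0.20). When adjusted over the list alone, 0 of these rose, but 2 did without WT 5. Of the 9 apolipoprotein L genes that passed the dim filter, 5 differences were positive and 4 negative, with a median of 0.016 beside 0.036 for all genes tested.

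**Figure D4:**
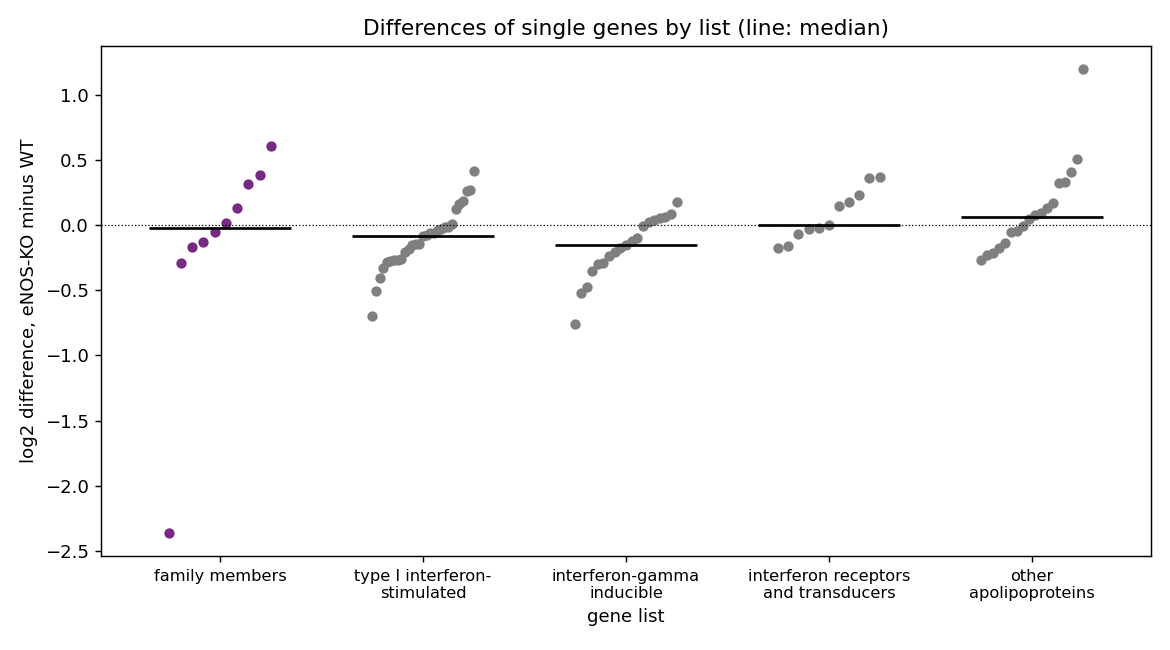
Log2 difference (eNOS-KO minus WT) of the 10 apolipoprotein L genes and of the tested genes of 4 lists, 1 point per gene and a line at each median. Apol11b is the lone point at -2.36, below every gene of the 4 lists, whose lowest is Iigp1 at -0.76. The family was chosen by this difference, which favours such a place. Marker lists are not drawn, and some of their genes fell more, such as Krt4 (-4.94) and Scgb1a1 (-2.80).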

How the data were processed

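RNA of 6 aortas was labelled from 300 ng and hybridised to 1 Affymetrix array each. The deposited log2 values came from RMA (background correction, quantile normalization, probe set summary) in Affymetrix Expression Console 1.3.1, per the submitters' processing notes, and were used as deposited. Of 41345 probe sets, 23525 named exactly 1 gene in the platform annotation. The brightest probe set of each gene was kept, and genes whose mean lay below that of 25% of probe sets, the dim level of 4.38 log2, were not tested.

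eNOS-KO and WT were compared with limma 3.58.1 in R 4.3.3 (lmFit, eBayes without trend, two-sided, Benjamini-Hochberg over 18008 genes, threshold 0.05); recovery was tested on simulated data. Members and lists were chosen with earlier results of these data known. Genes were named by rule: all members, list genes by smallest p, the 5 closest profiles of members past the dim level that span at least 1 log2, and the nearest and smallest-p cluster neighbours. The members' standard errors and intervals come from the fit without the dim filter. Start regions were aligned with Biopython 1.88, end gaps free. Alternatives changed the dim filter, variance model, probe sets, scaling, array weights, threshold, number of neighbours and arrays; leaving out eNOS-KO 11 and WT 5 together was added after seeing the data.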

Additional observations from a re-analysis of the deposited data

How the results depend on the processing

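No paired analysis was possible because the groups share no replicate number. The difference of Apol11b stayed between -2.57 and -2.17 in all 11 alternatives run for it. Differences of Apol6, Apol7c, Apol8 and Apol10b kept their sign in all 11, and those of Apol7a, Apol7b, Apol7e, Apol9a and Apol9b turned in 1 to 4. The number of genes called, 5, was 3 without a dim filter, 2 with the mean of probe sets, 2 after repeated quantile normalization, 119 with array weights, 8 at an adjusted p under 0.1, 0 to 6 with each array left out in turn, and 2 without eNOS-KO 11 and WT 5 together. Apol11b was not tested under the 50th percentile filter, being under that level. Adjusted over all genes, calls among the listed genes and the neighbours of the cluster stayed at 0 in every alternative run. Over the list alone, 1 type I interferon gene was called in 6 alternatives, and 2 apolipoproteins of other families without WT 5 and without eNOS-KO 11 and WT 5 together. The number of members whose groups did not overlap, 1, was 1 to 4 with each array left out, where 26.4% to 35.3% of all genes tested did not overlap, and 4 without eNOS-KO 11 and WT 5 together, where 48% did not. With arrays centred on their medians, the median of all genes tested was 0.10 in place of 0.036. Signals near the dim level limit what can be said of Apol7a, Apol8, Apol9b, Apol10a and Apol11a. The cause of the other changes was not tested.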
